A study of Mus musculus with 14 samples.

Results

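The 8 genes described here, Cd160, Nkg7, Gzma, Gzmb, Prf1, Klrd1, Ccl5 and Eomes, are genes of cytotoxic T cells and natural killer (NK) cells, and they were measured in thymic lymphomas of mice that differed in Hif1a. They were taken by name, as the probe sets that name only these genes, which gave 12 of the 18264 probe sets and 8 of the 10254 genes tested. The tumours came from 5 HIF1a+/- mice, 4 HIF1aKI/+ mice and 5 HIF1a+/+ mice, 1 array per tumour. Every mouse, the HIF1a+/+ ones included, carried p53R270H/R270H, a missense mutation of p53 on both alleles, on a mixed background of C57BL/6 and 129/SvEvTac. What the KI allele of Hif1a holds is not stated in the labels, nor are age and sex, and the mice were kept until breathing became difficult. The question behind the design is which expression differences between the Hif1a genotypes go with differences in when and how often these tumours arise.

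Cytotoxic lymphocytes kill by releasing granules onto a target cell: perforin, encoded by Prf1, opens pores in the membrane, and granzymes, serine proteases such as those of Gzma and Gzmb, enter and cleave proteins inside. Surface receptors such as CD94 (Klrd1) and CD160 tune this attack, Nkg7 encodes a protein of the granule membrane, Ccl5 a chemokine that draws in leukocytes, and Eomes a T-box transcription factor of NK and memory CD8 T cells. In the thymus, developing T cells as a rule do not yet carry this program, which mature T cells and NK cells switch on in the periphery.

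Levels are the authors' log2 probe set signals. Many genes pile up in a low peak of the level distribution, and 4.36, the trough above that peak, is the boundary used here. A level below it is called background, and a difference from a group at background has an uncertain size. Array medians lay between 7.91 and 8.03 and correlations between arrays between 0.941 and 0.974. The tissue label was checked against T cell markers: all 7 measured of 8 (Cd3d, Cd3e, Cd3g, Cd247, Thy1, Cd2 and Cd5) and Cd8a, Cd8b1 and Cd4 were above background in all 14 tumours. Hif1a itself was read by several probe sets. At that of highest mean, 1427418_a_at, it was 12.24 to 12.82 in HIF1a+/- tumours. It was 11.75 to 12.25 in HIF1aKI/+ and 12.44 to 13.04 in HIF1a+/+ tumours. There HIF1a+/- overlapped HIF1a+/+ (difference -0.13, SE 0.15, limma adjusted p = 0.857). HIF1aKI/+ lay below HIF1a+/+ (difference -0.66, SE 0.16, limma adjusted p = 0.984), and all its tumours did so on 1448183_a_at too. On 1416035_at these genotypes overlapped, at 8.84 to 10.26 in HIF1aKI/+ and 9.31 to 11.03 in HIF1a+/+ tumours. On 1431981_at every tumour was at background. Whether the Hif1a probes lie in the altered part of the gene is not stated, so these levels do not check the labels. A whole tumour was measured, so fewer cells of a type and less RNA per cell cannot be told apart in any value below.

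No member passed the test in any comparison of genotypes. At an adjusted p under 0.05 in limma, 0 of 8 members were called for HIF1a+/- against HIF1a+/+, where 0.0195% of all genes were (2 genes, Stab1 and Dhx15, named after their values were seen). Likewise 0 of 8 were called for HIF1aKI/+ against HIF1a+/+ and for HIF1a+/- against HIF1aKI/+, with 0% of all genes called in each, and 0 of 8 in the F test over the 3 genotypes, again with 0% of all genes. At an unadjusted p under 0.05, 2 of 8 members (Cd160 lower, Klrd1 higher) stood out for HIF1a+/- against HIF1a+/+, beside 7.94% of all genes. The same count was 0 of 8 for HIF1aKI/+ against HIF1a+/+, beside 4.35%, and 1 of 8 (Cd160 lower) for HIF1a+/- against HIF1aKI/+, beside 3.06%. The levels of 2 groups did not overlap for 1 of 8 members (Cd160) in HIF1a+/- against HIF1a+/+, beside 1.47% of all genes, and for 0 of 8 in the other comparisons, beside 1.76% for HIF1aKI/+ against HIF1a+/+ and 0.673% for HIF1a+/- against HIF1aKI/+. The median log2 difference of the 8 members was 0.62 for HIF1a+/- against HIF1a+/+, 0.06 for HIF1aKI/+ against HIF1a+/+ and 0.40 for HIF1a+/- against HIF1aKI/+, and that of all genes was 0.00 in each. Only 4 of the 8 members had a mean above background, so these medians rest in part on differences of uncertain size. The 0.62 lay between Prf1 (0.53) and Gzmb (0.71), and the Gzmb difference was -0.01 without HIF1a+/- tumour 3. Both altered genotypes were set against the same 5 HIF1a+/+ tumours, so these comparisons are not independent.

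**Figure D1:**
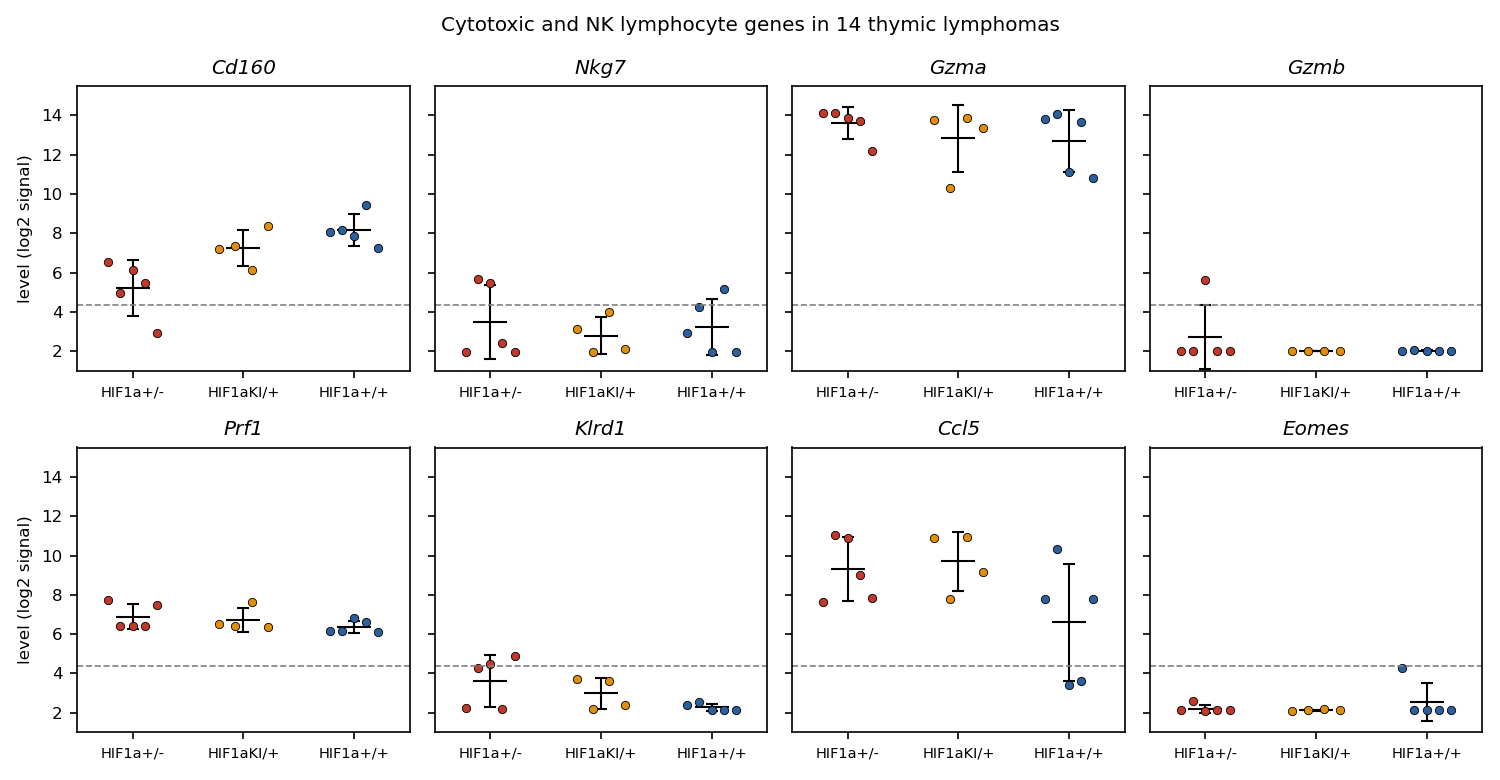
Level of each of the 8 genes (log2 signal, y axis) in each tumour by Hif1a genotype (x axis), at the probe set of highest mean. Points are tumours, black bars the group mean ± SD and the dashed line the background boundary at 4.36. Gzma and Prf1 lie above the line in all 14 tumours, Ccl5 in 12 and Cd160 in 13, while Eomes lies below it in all 14.

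The promoters of 6 of the 8 members were found in the RefSeq table used (build GRCm38.p6), each as 250 bases before and 50 after an annotated start, 7 windows in all because Cd160 has 2 starts. The windows of Klrd1 and Ccl5 were not in the table. Both Cd160 starts are shown because Cd160 had the lowest unadjusted p of the members. Gzma and Gzmb are shown because they encode granzymes and lay on opposite sides of background in most tumours. Capitals mark matches on either strand to the HIF core (ACGTG or GCGTG), a T-box motif (GGTGTGA), a RUNX motif (TGTGGT) and AP-1 (TGANTCA). No match overlapped another in these windows. The windows are written 5′ to 3′ on the strand of the gene, the minus strand for all 4, at chr3:96829302-96829601, chr3:96814472-96814771, chr13:113100932-113101231 and chr14:56262285-56262584 in the order below.
Cd160, upstream start: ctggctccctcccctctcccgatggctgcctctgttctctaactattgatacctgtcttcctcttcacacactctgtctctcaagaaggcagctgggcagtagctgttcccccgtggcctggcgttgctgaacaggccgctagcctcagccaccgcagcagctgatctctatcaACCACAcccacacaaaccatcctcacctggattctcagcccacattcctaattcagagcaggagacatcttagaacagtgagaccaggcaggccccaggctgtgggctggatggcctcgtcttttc
Cd160, downstream start: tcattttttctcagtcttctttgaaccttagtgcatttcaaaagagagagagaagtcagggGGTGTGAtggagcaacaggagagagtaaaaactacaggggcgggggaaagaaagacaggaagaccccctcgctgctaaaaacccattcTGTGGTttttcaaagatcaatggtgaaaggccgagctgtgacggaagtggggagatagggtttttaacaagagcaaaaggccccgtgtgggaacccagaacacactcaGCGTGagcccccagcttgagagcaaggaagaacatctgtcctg
Gzma: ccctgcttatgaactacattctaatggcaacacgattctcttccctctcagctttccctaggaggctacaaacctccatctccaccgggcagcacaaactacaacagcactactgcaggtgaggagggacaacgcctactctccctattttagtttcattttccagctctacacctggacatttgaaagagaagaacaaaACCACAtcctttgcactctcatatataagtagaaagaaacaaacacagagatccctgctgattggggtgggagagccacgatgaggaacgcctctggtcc
Gzmb: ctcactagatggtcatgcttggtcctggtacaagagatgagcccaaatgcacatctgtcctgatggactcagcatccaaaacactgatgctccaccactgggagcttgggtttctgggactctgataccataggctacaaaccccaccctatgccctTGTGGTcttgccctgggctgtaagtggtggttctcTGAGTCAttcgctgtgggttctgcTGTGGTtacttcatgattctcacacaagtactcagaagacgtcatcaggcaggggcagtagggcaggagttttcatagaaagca

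The RUNX letters, those bound by Runx factors that act in CD8 T cells, occurred in 5 of the 6 members with a window (Cd160 in both, Nkg7, Prf1, Gzma and Gzmb, where they occur at 2 places) and in 16.8% of the 32851 promoter windows of the table. T-box letters, which Eomes and T-bet recognise, occurred in 2 of 6 members, the downstream Cd160 start and Nkg7, and in 3.98% of all windows. AP-1 letters were found in 1 of 6 members, Gzmb, and in 7.81% of all windows. For the HIF core, the form ACGTG occurred in 0 of 6 members and 19.6% of all windows. The form GCGTG occurred in 1 of 6, the downstream Cd160 start, and in 32.4% of all windows. These matches describe the letters and do not show binding.

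Cd160, which encodes a membrane receptor of the immunoglobulin family on NK cells and CD8 T cells, was the member with the clearest separation between genotypes, lower in HIF1a+/- than in HIF1a+/+ tumours without passing the test over all genes. At the probe set of highest mean it was 6.56, 4.97, 6.12, 5.49 and 2.93 in HIF1a+/- tumours 1 to 5, against 8.07, 8.19, 7.86, 9.46 and 7.24 in HIF1a+/+ tumours 1 to 5. All 5 HIF1a+/- tumours lay below the lowest HIF1a+/+ tumour, and HIF1a+/- tumour 5 was at background. The log2 difference was -2.95 (SE 0.67, 95% confidence interval -4.41 to -1.49), a 7.74-fold lower mean, with a limma adjusted p of 0.408. Over 23 alternative settings the difference ran from -3.29 to -2.38 and the adjusted p from 0.227 to 0.703.

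In HIF1aKI/+ tumours 1, 3, 4 and 5 Cd160 was 7.22, 7.38, 6.13 and 8.37. These lay between the other genotypes, with tumour 4 inside the HIF1a+/- range, tumours 3 and 5 inside the HIF1a+/+ range and tumour 1 just below it. The HIF1aKI/+ mean of 7.28 ± 0.92 (SD, n = 4) was 0.89 log2 units under the HIF1a+/+ mean of 8.17 ± 0.81 (SD, n = 5), a difference of -0.89 (SE 0.71, limma adjusted p = 0.984). It was -0.51 without HIF1aKI/+ tumour 4 and -0.57 without HIF1a+/+ tumour 4. HIF1a+/-, with a mean of 5.21 ± 1.41 (SD, n = 5), differed from HIF1aKI/+ by -2.06 (SE 0.71, limma adjusted p = 1).

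All 3 Cd160 probe sets gave the same order of genotypes, and across the 14 tumours they ran together with Pearson r from 0.91 to 0.97. On probe set 1420066_s_at, whose probes may match more than 1 transcript, the mean was 4.64 ± 1.35 in HIF1a+/- (SD, n = 5), 7.06 ± 1.57 in HIF1aKI/+ (SD, n = 4) and 8.23 ± 1.21 in HIF1a+/+ tumours (SD, n = 5). Its HIF1a+/- minus HIF1a+/+ difference was -3.59 (SE 0.84, limma adjusted p = 0.402 over all 16602 probe sets that name 1 gene). On probe set 1420396_at the signal was near background, at 2.63 ± 0.78 in HIF1a+/-, 3.84 ± 1.13 in HIF1aKI/+ and 5.01 ± 1.16 in HIF1a+/+ tumours, and the HIF1a+/- minus HIF1a+/+ difference was -2.38 (SE 0.63, limma adjusted p = 0.457). The probe sets share the same RNA and are not replicates of the genotype.

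**Figure D2:**
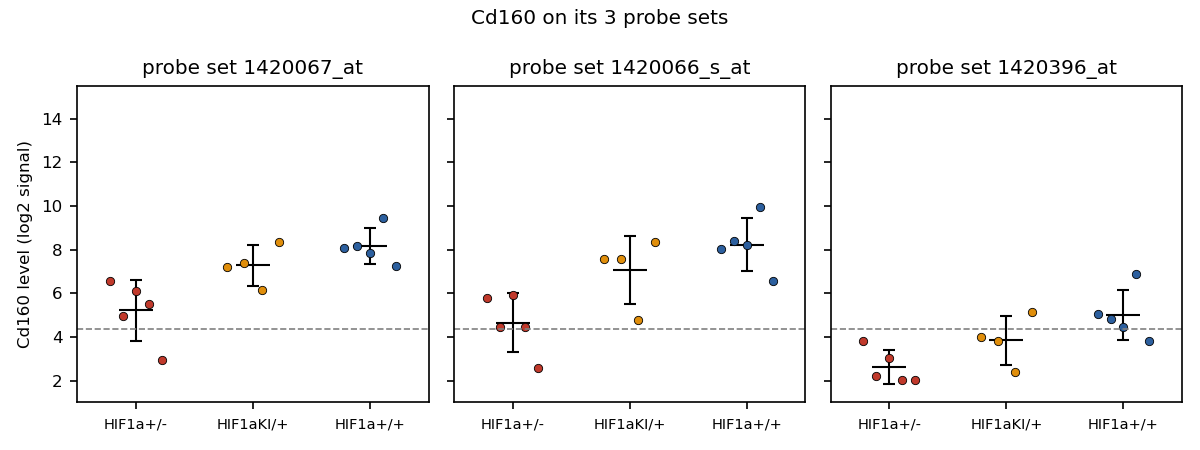
Cd160 level (log2 signal, y axis) on its 3 probe sets by Hif1a genotype (x axis), 1 point per tumour with mean ± SD and the background boundary at 4.36 as a dashed line. On 1420067_at and 1420066_s_at every HIF1a+/- tumour lies below every HIF1a+/+ tumour, and on 1420396_at all HIF1a+/- tumours are at background.

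Markers of other cells were set beside the Cd160 levels. The mean of 7 T lineage markers was 11.25 to 12.36 in HIF1a+/- tumours, 11.92 to 12.22 in HIF1aKI/+ tumours and 11.68 to 12.36 in HIF1a+/+ tumours, so these ranges overlapped. Macrophage markers (6 of 6 measured, 4 above background in all tumours) had a mean of 7.26 to 8.36 in HIF1a+/- tumours, 7.04 to 8.81 in HIF1aKI/+ tumours and 8.30 to 10.40 in HIF1a+/+ tumours. The macrophage part in the Cd160 difference was not tested. Of the 18 measured of 37 listed genes for receptors of NK and cytotoxic cells, 9 were at background in all 14 tumours. Among these were the NK receptor genes Klrk1 (NKG2D), at 2.02 to 2.13, and Klrc1 (NKG2A, the partner of CD94), at 2.09 to 2.13, and the Ly49 family genes Klra2, Klra5 and Klra7, at 2.01 to 2.13 over the 3 of them. Klrb1a, Klrb1b, Klrb1f and Il12rb2 were the others.

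**Figure D3:**
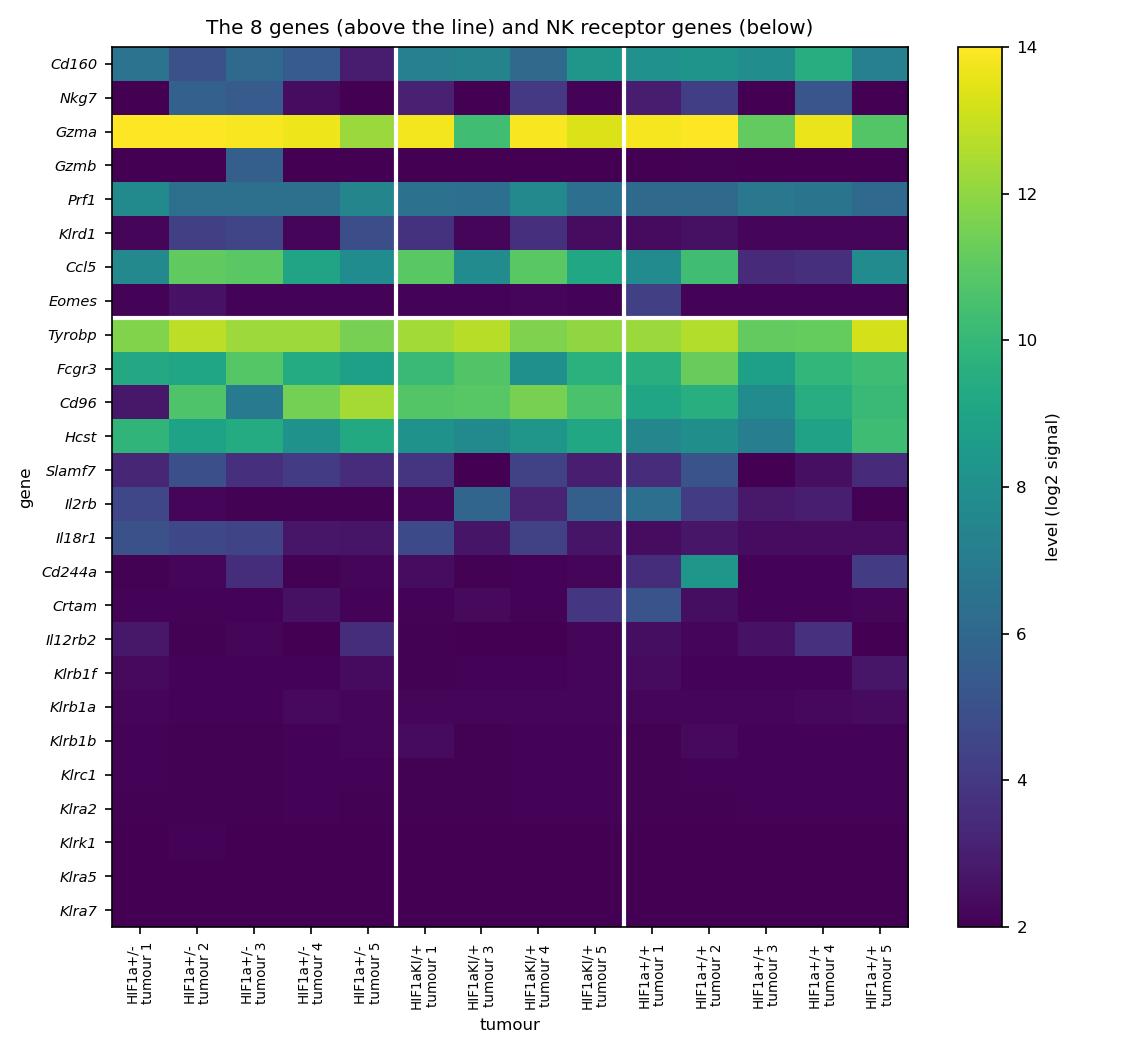
Level (log2 signal, colour) of the 8 genes, above the horizontal line, and of 18 measured NK and cytotoxic cell receptor genes, below it, in 14 tumours (x axis) grouped by genotype. Colour is to be read along a row. The Klra, Klrb1, Klrc1 and Klrk1 rows stay at background in all tumours, while Gzma stays above it in all.

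Gzma, which encodes the tryptase granzyme A, was above background in all 14 tumours. It was 14.13, 14.13, 13.87, 13.70 and 12.20 in HIF1a+/- tumours 1 to 5, and 13.79, 10.31, 13.88 and 13.36 in HIF1aKI/+ tumours 1, 3, 4 and 5. In HIF1a+/+ tumours 1 to 5 it was 13.83, 14.08, 11.14, 13.66 and 10.80. HIF1aKI/+ tumour 3 and HIF1a+/+ tumours 3 and 5 were the low ones, and the ranges of the 3 genotypes overlapped. The HIF1a+/- mean of 13.60 ± 0.80 (SD, n = 5) differed from the HIF1a+/+ mean of 12.70 ± 1.59 (SD, n = 5) by 0.90 (SE 0.85, 95% confidence interval -0.96 to 2.77, limma adjusted p = 0.806). That difference was 0.43 without HIF1a+/+ tumour 5 and 0.51 without HIF1a+/+ tumour 3. For HIF1aKI/+, at 12.84 ± 1.70 (SD, n = 4), the difference from HIF1a+/+ was 0.14 (SE 0.91, limma adjusted p = 1). Leaving out 1 array moved it between -0.34 (without HIF1a+/+ tumour 5) and 0.98 (without HIF1aKI/+ tumour 3).

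Gzmb, which encodes granzyme B, a protease that activates caspases in the target cell, was at background in 13 of 14 tumours. HIF1a+/- tumour 3 was the exception at 5.63, and the other 13 tumours lay between 2.0 and 2.06. Without that tumour the HIF1a+/- minus HIF1a+/+ difference was -0.01, against 0.71 (SE 0.60, limma adjusted p = 0.781) with it. The HIF1aKI/+ minus HIF1a+/+ difference was -0.01 (SE 0.64, limma adjusted p = 1).

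Prf1 was read by 2 probe sets that disagreed. On 1450335_at, which stood for the gene, it was 7.75, 6.42, 6.42, 6.43 and 7.46 in HIF1a+/- tumours 1 to 5, and 6.52, 6.40, 7.64 and 6.39 in HIF1aKI/+ tumours 1, 3, 4 and 5. In HIF1a+/+ tumours 1 to 5 it was 6.16, 6.16, 6.81, 6.60 and 6.12. The values covered a range of only 1.62 log2 units over all 14 tumours, with HIF1a+/- tumours 1 and 5 and HIF1aKI/+ tumour 4 above the rest and the genotypes overlapping. On 1451862_a_at the level was at background in all 14 tumours, 4.11 in HIF1a+/- tumour 5 and 2.02 to 2.04 in the other 13. At the first probe set HIF1a+/- differed from HIF1a+/+ by 0.53 (SE 0.33, 95% confidence interval -0.20 to 1.25, limma adjusted p = 0.712), and by 0.31 without HIF1a+/- tumour 1. The HIF1aKI/+ minus HIF1a+/+ difference was 0.37 (SE 0.35, limma adjusted p = 0.984), and 0.07 without HIF1aKI/+ tumour 4.

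Nkg7, whose product sits in the membrane of cytotoxic granules, was above background in 3 of 14 tumours. It was 1.96, 5.66, 5.45, 2.40 and 1.96 in HIF1a+/- tumours 1 to 5, and 3.12, 1.96, 3.99 and 2.12 in HIF1aKI/+ tumours 1, 3, 4 and 5. In HIF1a+/+ tumours 1 to 5 it was 2.92, 4.23, 1.96, 5.16 and 1.97. HIF1a+/- tumours 2 and 3 and HIF1a+/+ tumour 4 were above the boundary, and the ranges overlapped. The HIF1a+/- minus HIF1a+/+ difference was 0.24 (SE 0.92, limma adjusted p = 0.99), and the HIF1aKI/+ minus HIF1a+/+ difference was -0.45 (SE 0.98, limma adjusted p = 1).

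Klrd1, which encodes CD94, was above background in 2 of 14 tumours, both HIF1a+/-. It was 2.22, 4.28, 4.50, 2.20 and 4.88 in HIF1a+/- tumours 1 to 5, and 3.74, 2.20, 3.61 and 2.38 in HIF1aKI/+ tumours 1, 3, 4 and 5. In HIF1a+/+ tumours 1 to 5 it was 2.37, 2.55, 2.16, 2.16 and 2.16. Of these, 3 of 5 HIF1a+/- tumours and 2 of 4 HIF1aKI/+ tumours lay above the highest HIF1a+/+ tumour, and the others fell inside the HIF1a+/+ range. The HIF1a+/- minus HIF1a+/+ difference was 1.33 (SE 0.55, limma adjusted p = 0.587, 0.358 to 0.845 over 22 alternatives), with the means of all 3 groups at background. The HIF1aKI/+ minus HIF1a+/+ difference was 0.70 (SE 0.58, limma adjusted p = 0.984), and 0.45 without HIF1aKI/+ tumour 1.

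Eomes was at background in all 14 tumours on both of its probe sets. On 1435172_at it was 4.26 in HIF1a+/+ tumour 1, just under the boundary, and 2.11 to 2.58 in the other 13 tumours. On 1426001_at it was 2.02 to 2.04 in all 14. The related T-box gene Tbx21, which encodes T-bet, was 2.02 to 7.32 in HIF1a+/- tumours, 4.80 to 7.31 in HIF1aKI/+ tumours and 4.56 to 6.13 in HIF1a+/+ tumours. It was named after its values were seen and was at background in HIF1a+/- tumour 4 alone.

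Ccl5, which encodes the chemokine RANTES, varied most among tumours of the 8 genes, over 7.63 log2 units. It was 7.65, 11.05, 10.91, 9.02 and 7.84 in HIF1a+/- tumours 1 to 5, and 10.91, 7.80, 10.93 and 9.16 in HIF1aKI/+ tumours 1, 3, 4 and 5. In HIF1a+/+ tumours 1 to 5 it was 7.80, 10.31, 3.42, 3.63 and 7.81. HIF1a+/+ tumours 3 and 4 were at background and below every tumour of the other genotypes, while the other 3 HIF1a+/+ tumours lay inside their ranges. The HIF1a+/- mean of 9.29 ± 1.63 (SD, n = 5) was higher than the HIF1a+/+ mean of 6.59 ± 2.99 (SD, n = 5) by 2.70 (SE 1.34, 95% confidence interval -0.24 to 5.64), which did not pass (limma adjusted p = 0.65, 0.421 to 0.855 over 23 alternatives). The HIF1aKI/+ mean of 9.70 ± 1.51 (SD, n = 4) was higher than the same HIF1a+/+ mean by 3.11 (SE 1.43, 95% confidence interval -0.01 to 6.22, limma adjusted p = 0.984). Between HIF1a+/- and HIF1aKI/+ the difference was -0.41 (SE 1.43, limma adjusted p = 1).

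The HIF1a+/+ tumours at background for Ccl5, 3 and 4, also had low means of the lists given below, though not low levels of every gene in them. Other marker lists were not low in them. Their macrophage means, 9.02 and 9.31, lay above every tumour of the altered genotypes (at most 8.81). The adipocyte mean was 10.12 in tumour 3 and 4.70 in tumour 4. Thymic epithelial markers (5 of 5 measured, Krt8, Krt18, Krt5, Krt14 and Epcam) had a mean of 6.24 to 9.18 in HIF1a+/- tumours, 7.41 to 9.11 in HIF1aKI/+ tumours and 2.93 to 8.63 in HIF1a+/+ tumours. HIF1a+/+ tumours 3 and 4 were at 2.93 and 3.78 in that list, with Epcam at 6.75 in tumour 4. HIF1a+/+ tumour 5 was at 5.39, also below every tumour of the altered genotypes, yet its Ccl5 was 7.81. Interferon-induced genes (6 of 8 measured) had a mean of 5.42 to 8.89 in HIF1a+/- tumours, 6.44 to 8.65 in HIF1aKI/+ tumours and 4.67 to 7.36 in HIF1a+/+ tumours, with tumours 3 and 4 of the last group at 4.67 and 4.68. Usp18 of that list was 10.36 in HIF1a+/+ tumour 3. The part of these cells or genes in the Ccl5 levels was not tested.

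**Figure D4:**
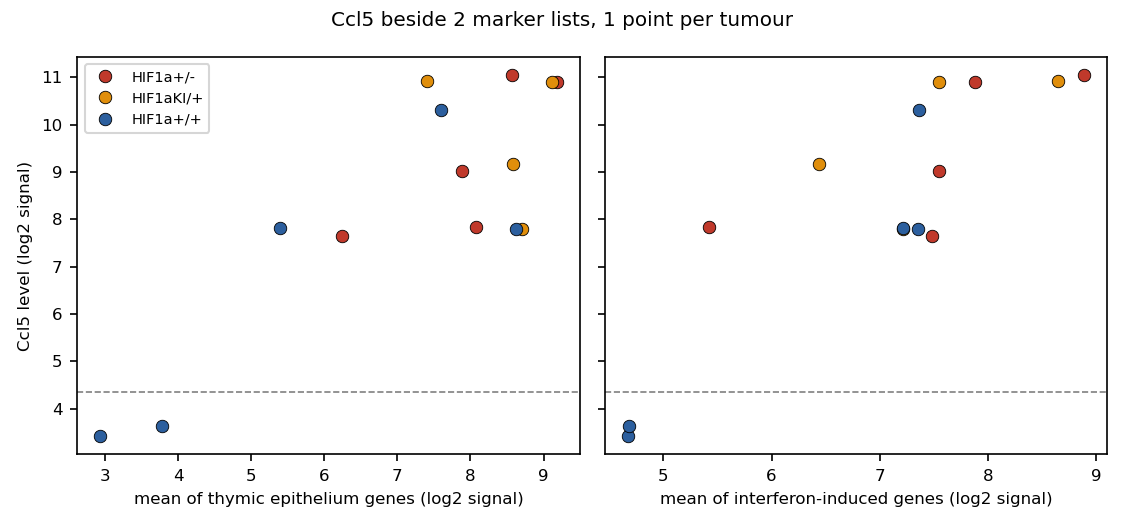
Ccl5 level (log2 signal, y axis) against the mean level of 5 thymic epithelial markers (left) and of 6 interferon-induced genes (right), 1 point per tumour coloured by genotype, with the background boundary at 4.36 as a dashed line. HIF1a+/+ tumours 3 and 4, at 3.42 and 3.63 for Ccl5, have the lowest mean of both lists.

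**Figure D5:**
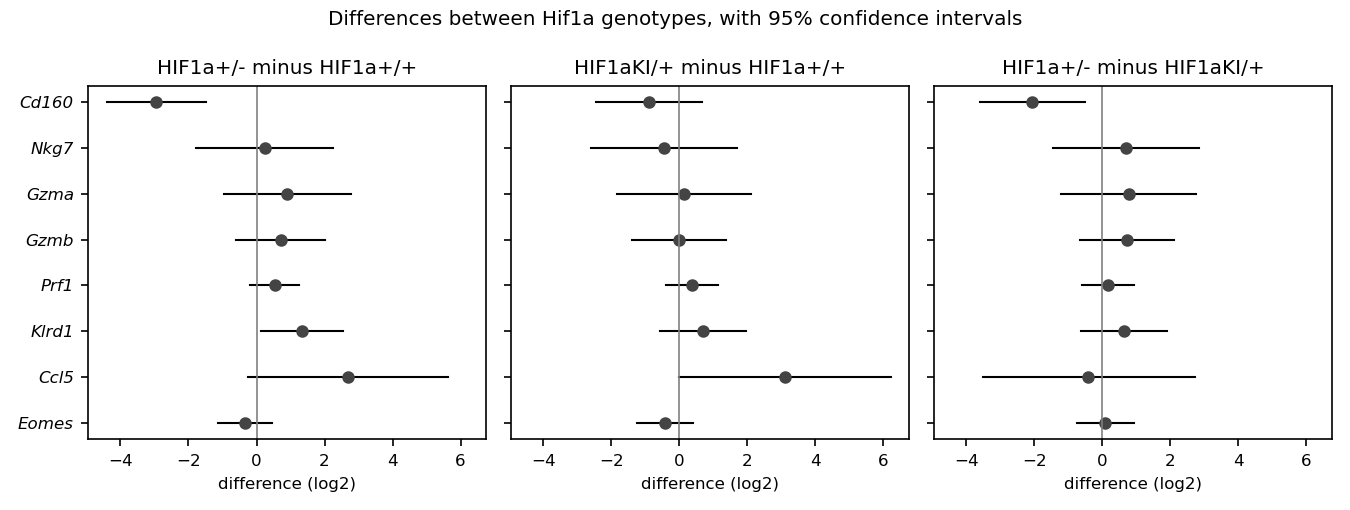
Log2 difference of each of the 8 genes (x axis) in the 3 comparisons of Hif1a genotypes, points with 95% confidence intervals from the limma fit. For HIF1a+/- against HIF1a+/+ the intervals of Cd160 (-4.41 to -1.49) and Klrd1 (0.14 to 2.53) leave out 0, before any adjustment for the number of genes.

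Other genes of the cytotoxic program showed no called change. Of 82 genes in 5 related lists 49 were measured, 20 with a mean above background and 20 at background in all tumours. By limma 0 of 49 passed in each of the 3 comparisons. Those with an unadjusted p below 0.05 numbered 2 higher and 1 lower of 49 for HIF1a+/- against HIF1a+/+, beside 7.94% of all genes, and 1 higher and 2 lower of 49 for HIF1aKI/+ against HIF1a+/+, beside 4.35%. For HIF1a+/- against HIF1aKI/+ they numbered 0 of 49, beside 3.06%. The groups did not overlap for 1, 2 and 0 of the 49 in these comparisons, beside 1.47%, 1.76% and 0.673% of all genes. Their median log2 difference was -0.03, -0.01 and 0.00 in these comparisons, beside 0.00 for all genes.

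Among granule proteases and effectors (12 of 18 measured), 6 were at background in all tumours: Gzmc, Gzmm, Tnfsf10, Ifng, Lta and Xcl1. Ifng, the interferon-gamma gene, was 2.07 to 2.09. The granule proteoglycan gene Srgn was 12.90 ± 0.20 in HIF1a+/- (SD, n = 5), 12.49 ± 0.51 in HIF1aKI/+ (SD, n = 4) and 13.04 ± 0.37 in HIF1a+/+ tumours (SD, n = 5). Ctsc, which encodes the protease that activates granzymes, was 10.32 ± 0.68 in HIF1a+/-, 10.57 ± 0.33 in HIF1aKI/+ and 10.99 ± 0.71 in HIF1a+/+ tumours. Ctsw, a cathepsin gene of NK and CD8 T cells, was 4.31 to 7.68 in HIF1a+/-, 6.16 to 7.28 in HIF1aKI/+ and 2.86 to 8.79 in HIF1a+/+ tumours. The chemokine gene Ccl3 was 5.18 to 8.76 in HIF1a+/-, 4.14 to 7.78 in HIF1aKI/+ and 4.01 to 9.97 in HIF1a+/+ tumours. The groups overlapped for all of these.

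Genes of granule release (5 of 7 measured) were above background in all tumours, except that Rab27a was at background in all. Lamp1, a lysosome membrane gene, was 13.07 ± 0.25 in HIF1a+/- (SD, n = 5), 13.07 ± 0.11 in HIF1aKI/+ (SD, n = 4) and 13.04 ± 0.29 in HIF1a+/+ tumours (SD, n = 5). Vamp7, Lyst and Stxbp2, which serve vesicle and lysosome traffic, differed between HIF1a+/- and HIF1a+/+ by -0.20, 0.59 and 0.40, none called. These genes act in many cell types.

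Of the receptor genes, Tyrobp and Hcst, which encode signalling adaptors, and the Fc receptor gene Fcgr3 were above background in all 14 tumours, and macrophages express Tyrobp and Fcgr3 too. Tyrobp was 12.12 ± 0.49 in HIF1a+/- (SD, n = 5), 12.18 ± 0.46 in HIF1aKI/+ (SD, n = 4) and 12.07 ± 0.91 in HIF1a+/+ tumours (SD, n = 5). Cd96, an adhesion receptor gene of T and NK cells, was 2.79, 10.68, 6.90, 11.51 and 12.37 in HIF1a+/- tumours 1 to 5, 10.57 to 11.53 in HIF1aKI/+ tumours and 7.81 to 10.10 in HIF1a+/+ tumours. The HIF1aKI/+ tumours all lay above the HIF1a+/+ tumours, with a difference of 1.73 (SE 1.60, limma adjusted p = 0.984). HIF1a+/- tumours 1 and 3 lay below the HIF1a+/+ range, tumours 2 and 4 inside the HIF1aKI/+ range and tumour 5 above it.

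Of the regulators (9 of 10 measured), Runx3, Prdm1 and Zeb2 were at background in all tumours, and Ets1 and Id2 above it in all. Ets1 was 13.18 ± 0.17 in HIF1a+/- (SD, n = 5), 13.14 ± 0.35 in HIF1aKI/+ (SD, n = 4) and 13.04 ± 0.21 in HIF1a+/+ tumours (SD, n = 5), and Id2 differed between HIF1a+/- and HIF1a+/+ by -0.13 and Nfil3 by -1.02. Stat4, which carries the IL-12 signal, was 6.04, 9.98, 8.16, 8.43 and 4.51 in HIF1a+/- tumours 1 to 5, 7.51, 8.69, 8.17 and 5.53 in HIF1aKI/+ tumours 1, 3, 4 and 5, and 7.87, 3.93, 3.95, 3.42 and 3.77 in HIF1a+/+ tumours 1 to 5. Apart from HIF1a+/+ tumour 1, all HIF1a+/+ tumours were at background and below the other genotypes. The differences, 2.83 (SE 1.14) for HIF1a+/- and 2.89 (SE 1.20) for HIF1aKI/+ against the same HIF1a+/+ tumours, did not pass (limma adjusted p = 0.578 and 0.984).

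Of binding partners and protective genes, 5 of 10 were measured. Serpinb9, which encodes an inhibitor of granzyme B, was 5.32 to 8.38 in HIF1a+/-, 7.08 to 8.17 in HIF1aKI/+ and 5.76 to 7.84 in HIF1a+/+ tumours. Serpinb6b, of the same family, was 6.89 to 9.56 in HIF1a+/-, 8.43 to 9.68 in HIF1aKI/+ and 8.09 to 8.96 in HIF1a+/+ tumours, so both were above background throughout and overlapped. The chemokine receptor gene Ccr1, whose ligands include CCL5, was above background only in HIF1a+/+ tumour 2, its maximum being 4.84. Il15ra, which presents IL-15 to NK and CD8 T cells, was 2.04 to 5.77 in HIF1a+/-, 3.01 to 4.24 in HIF1aKI/+ and 3.20 to 8.08 in HIF1a+/+ tumours.

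Correlations between the 4 members with a mean above background were described over the 14 tumours. Over the 6 pairs Pearson r lay between -0.45 (Cd160 and Prf1) and 0.46 (Gzma and Ccl5), with Spearman rho of -0.38 and 0.50 for these pairs, as a description over tumours that share the arrays and their normalization. Gzma and Ccl5 had r = 0.47 within genotypes and r = 0.62 without HIF1aKI/+ tumour 3 and HIF1a+/+ tumour 5, the tumours farthest from the Gzma median. Cd160 and Prf1 had r = -0.25 within genotypes and r = -0.35 without HIF1a+/- tumours 2 and 5, the farthest from the Cd160 median. Each member had closer neighbours among the other 7362 genes with a mean above background, found by the highest of all correlations and so given without a test. Cd160 ran closest with Clip1 (r = 0.92, rho = 0.85), Noc4l (0.89, 0.82) and Pcgf6 (0.88, 0.80). Gzma ran closest with Ms4a4b, a membrane protein gene of T cells (r = 0.92, rho = 0.75), then Phf13 (0.79, 0.73) and Tmem87a (0.78, 0.75), the last with r = 0.40 without HIF1aKI/+ tumour 3 and HIF1a+/+ tumour 5. Ms4a4b ran from 2.22 to 8.63, at background at its lowest. For Prf1 the nearest were Gtpbp2 (r = 0.92, rho = 0.71), Neurl4 (0.90, 0.88) and Casc3 (0.90, 0.93), and for Ccl5 they were Nck1 (0.93, 0.81), Ttc33 (0.92, 0.82) and Trim32 (0.92, 0.85). Without the 2 tumours farthest from the median of the member, r was 0.66 to 0.95 for the 11 pairs other than Gzma and Tmem87a.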

How the data were processed

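Total RNA from 14 thymic lymphomas, 100 ng each, was amplified, labelled with biotin and hybridised to 1 array per tumour, per the labels' protocols. The deposited values are log2 probe set signals, for which the submitters' processing notes name GCRMA (background correction by probe sequence, normalization and summary) and Partek. No genome build was named in these notes. Of 18264 probe sets, 16602 name 1 gene, 603 several and 1059 none in the platform annotation, whose symbols were updated by gene ID through a RefSeq table. The probe set of highest mean over all arrays stood for a gene, giving 10254 genes with no filter on level. The background boundary of 4.36 is the minimum of a kernel density (bandwidth 0.5) of all gene values, and 28.2% of genes have a mean below it.

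With limma 3.58.1 (lmFit, eBayes; R 4.3.3), 1 model with a mean for each genotype took in the 14 arrays together. Tests were two-sided, with Benjamini-Hochberg adjustment over the 10254 genes and a threshold of 0.05. The procedure was also run on simulated data with known changes and normally distributed noise, unlike levels that pile up at background. How large a difference these arrays could detect is not given here. SD is between tumours and SE is of the fit, and the number of arrays limits the precision. The labels call the tumours biological replicates and name no batch. The named genes are all 8 members and up to 4 genes of highest mean in each of 5 related lists. Named too are 3 genes closest to each member above background by Pearson r. Apart from Hif1a and markers, further genes, among them list genes at background in all tumours, were named after their values were seen. The members, lists and tests were chosen with earlier results of these data known. Alternatives covered a filter on level, normalization, centring, moderation, array weights, fits of 2 groups, the handling of probe sets, a replicate block, the threshold and leaving out each array.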

Additional observations from a re-analysis of the deposited data

Results flagged for a closer look

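Of 24 groups (8 genes in 3 genotypes), 7 held a tumour far from the others of its genotype by Dixon's test of the gap over the range, where chance gives about 1 in 20 if values are normally distributed. In 4 of them the tumour was above background. Gzma was low at 12.20 in HIF1a+/- tumour 5, where the other 4 tumours lay at 13.70 to 14.13, and at 10.31 in HIF1aKI/+ tumour 3, where the others lay at 13.36 to 13.88. Gzmb was 5.63 in HIF1a+/- tumour 3, the others 2.0 to 2.01. Prf1 was 7.64 in HIF1aKI/+ tumour 4, the others 6.39 to 6.52.

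The other 3 lay at background. Eomes was 4.26 in HIF1a+/+ tumour 1 (others 2.12 to 2.13) and 2.58 in HIF1a+/- tumour 2 (others 2.11 to 2.14), and Gzmb was 2.06 in HIF1a+/+ tumour 2 (others 2.0 to 2.01). In every marked group of Gzmb and Eomes the other tumours lay so close together that even a small departure was marked. The rate of 1 in 20 does not apply to these groups.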

How the results depend on the processing

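Over 23 alternatives (9 settings and 14 fits without 1 array), 0 of 540 member values passed the threshold, and 519 kept their direction. Cd160 stayed lower in HIF1a+/- than in HIF1a+/+ tumours in all 23. Part of this sameness was fixed in advance. The filter on level, the moderation, the fits of 2 groups and the singly tested probe sets could change only the p. The same holds for leaving out an array of the genotype not compared. Signs changed in 21 of the 540 values. With array weights Gzma in HIF1aKI/+ against HIF1a+/+ was -0.09 and Ccl5 in HIF1a+/- against HIF1aKI/+ was 0.11. In the fits without 1 array the differences ran as follows. For HIF1a+/- against HIF1a+/+ they were -0.30 to 0.72 for Nkg7, -0.01 to 0.89 for Gzmb and -0.45 to 0.09 for Eomes. For HIF1aKI/+ against HIF1a+/+ they were -0.34 to 0.98 for Gzma, -0.85 to 0.03 for Nkg7 and -0.53 to 0.01 for Eomes. For HIF1a+/- against HIF1aKI/+ they were -0.08 to 1.12 for Gzma, -0.05 to 0.46 for Prf1, -1.04 to 0.00 for Ccl5, 0.00 to 0.91 for Gzmb and -0.01 to 0.11 for Eomes. The causes were not tested.

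The genes called for HIF1a+/- against HIF1a+/+ numbered 2. They numbered 1 (Dhx15) with trend and robust moderation, and 0 with the filter on level, quantile normalization, median centring, only the compared groups, probe sets tested singly or the replicate block. They numbered 2 with array weights or with probe sets averaged per gene, and 3 at a threshold of 0.1. Without 1 array they numbered 0 to 1 (Hspb11, without HIF1a+/- tumour 1). For HIF1aKI/+ against HIF1a+/+ they numbered 0 to 2 without 1 array, with Tmem38a called without HIF1aKI/+ tumour 3 and Mfap2 and Rab6b without tumour 5. For HIF1a+/- against HIF1aKI/+ they numbered 0 to 1, with Tmem38a called without HIF1aKI/+ tumour 3 and Hif3a without HIF1a+/+ tumour 5. Same-numbered tumours of different genotypes had residual correlations of -0.11 to 0.14 over 13 pairs, and differently numbered ones of -0.24 to 0.26 over 52 pairs. These correlations cannot show whether same-numbered tumours shared anything beside the number. The filter on level left out the 4 members at background. Members at background cannot show a lower level.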

Other observations

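Tumours high for several cytotoxic genes were not the same for every gene, and those given here were chosen after their values were seen. HIF1a+/+ tumour 1 had the highest level of the 14 for Eomes (4.26, at background) and Gzmk (7.28, a further granzyme gene). That tumour was also highest for Crtam (5.09, an activation receptor gene of NK and CD8 T cells) and Ctsw (8.79). The same held for Il2rb (6.37, the shared IL-2 and IL-15 receptor chain). It did not hold for Gzma (13.83), Ccl5 (7.80), Cd160 (8.07) or Prf1 (6.16, where the 14 tumours ran from 6.12 to 7.75). Gzmb, Nkg7 (2.92) and Klrd1 (2.37) were at background in HIF1a+/+ tumour 1. Gzmk was at background in the other 13 tumours, at 2.04 to 3.60. Zbtb16, which encodes the NKT cell factor PLZF, was 4.78 in that tumour and 4.82 in HIF1a+/+ tumour 4, and at background in the other 12.

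HIF1a+/- tumours 2 and 3 had the highest levels of Nkg7 (5.66 and 5.45), with Klrd1 at 4.28 (background) and 4.50 and Ccl5 at 11.05 and 10.91. The 3 genes were not high together throughout. HIF1a+/- tumour 5, highest for Klrd1 at 4.88, had Nkg7 at 1.96 and Ccl5 at 7.84. HIF1aKI/+ tumours 1 and 4 had Ccl5 at 10.91 and 10.93 with Nkg7 at background (3.12 and 3.99). Il18r1, the IL-18 receptor gene, was 4.99, 4.58 and 4.44 in HIF1a+/- tumours 1, 2 and 3. In HIF1aKI/+ tumours 1 and 4 it was 4.68 and 4.34, the latter at background. In the 5 HIF1a+/+ tumours it was 2.41 to 2.72, all at background. It was 2.68 to 2.71 in the other 4 tumours of the altered genotypes, and its difference did not pass in either comparison (limma adjusted p = 0.546 and 0.984). Hopx, a homeobox gene of effector and memory T cells, was 2.23 to 4.73 in HIF1a+/- and 1.85 to 3.62 in HIF1aKI/+ tumours, against 4.94 to 6.81 in HIF1a+/+ tumours. Its groups did not overlap in either comparison, as for 1.47% of all genes in HIF1a+/- against HIF1a+/+ (1 of the 49 related genes) and 1.76% in HIF1aKI/+ against HIF1a+/+ (2 of 49). Its differences of -1.73 (SE 0.60) and -2.60 (SE 0.63) did not pass (limma adjusted p = 0.525 and 0.984). All HIF1aKI/+ tumours and the HIF1a+/- mean of 3.99 were at background for Hopx, so these differences have an uncertain size. Cd244a, the 2B4 receptor gene of NK cells, was 8.34 in HIF1a+/+ tumour 2 and 2.07 to 4.08 in the other 13.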
